A study of Mus musculus with 20 samples.

Results

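The 8 genes Masp1, Wasf1, Prkd1, Oplah, Dio2, Tmem121, C78283 and Gm773 were described in every tumour of a mouse RNA sequencing study. They were chosen by their measured levels in these same 20 tumours, for a difference between mutant and vector tumours under both treatments, so that difference is given as a description with no test. The levels of Oplah and Dio2 overlapped under anti-PD-1. The genes are 8 of the 55335 genes listed, and of the 13982 genes tested. Of the 8 genes, 7 are annotated as protein-coding and 1, C78283, as a long intergenic non-coding RNA.

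RNA was taken from tumours grown in mice from CT26, a BALB/c cell line of colon carcinoma. The 4 groups of 5 tumours were mutant cells with an antibody against PD-1, mutant cells with PBS, vector cells with the antibody, and vector cells with PBS. The design text calls the mutant cells POLE-mutant, while the title of the series names CHEK2. The labels give neither the form of the mutant nor the strain and age of the hosts, and they name no separate clones, so a difference between mutant and vector tumours cannot be told apart from a difference between 2 sublines of CT26. Every tumour holds host cells beside the CT26 cells, and in bulk RNA fewer cells of a type and less RNA per cell cannot be told apart. Replicate numbers follow the order of deposition and serve as names. Values are FPKM (fragments per length of transcript and size of library) as deposited.

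The genes belong to unrelated pathways. Masp1 encodes a secreted serine protease that starts the lectin branch of complement once a lectin has bound sugars on a surface. Wasf1 encodes WAVE1, the subunit through which the GTPase Rac drives the Arp2/3 complex to branch actin filaments, and Prkd1 encodes protein kinase D1, a serine and threonine kinase switched on by diacylglycerol and protein kinase C. Oplah encodes 5-oxoprolinase, which returns 5-oxoproline to glutamate in the gamma-glutamyl cycle of glutathione. Dio2 encodes the type 2 iodothyronine deiodinase, which turns thyroxine into the active hormone triiodothyronine inside cells and is known as a gene that cyclic AMP induces. Tmem121 encodes a membrane protein. No role is given here for the predicted gene Gm773 or for C78283.

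Promoter sequence was read for 3 of the genes to show how unlike their starts are. Gm773 had the widest separation of the 8, Prkd1 was the one gene higher in mutant tumours, and the Dio2 promoter holds matches to a TATA box and to the cyclic AMP response element. The sequences are those of RefSeq on GRCm38.p6, whose table held 5 of the 8 genes, and run from 250 to 11 bases before the RefSeq start, which for Prkd1 and Dio2 lies upstream of the GENCODE start. They lie at chrX:56212892-56213131 on the minus strand for Gm773, chr12:50649260-50649499 on the minus strand for Prkd1 and chr12:90739049-90739288 on the minus strand for Dio2. Capitals mark each match, on either strand, to TATAAA, to TGACGTCA (the cyclic AMP response element), to GGGCGG (the GC box) and to CACGTG (the E box).
Gm773: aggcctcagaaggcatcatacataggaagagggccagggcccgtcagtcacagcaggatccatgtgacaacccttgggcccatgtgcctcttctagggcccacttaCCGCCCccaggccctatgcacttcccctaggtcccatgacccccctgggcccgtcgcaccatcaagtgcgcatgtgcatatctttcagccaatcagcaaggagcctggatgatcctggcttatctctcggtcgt
Prkd1: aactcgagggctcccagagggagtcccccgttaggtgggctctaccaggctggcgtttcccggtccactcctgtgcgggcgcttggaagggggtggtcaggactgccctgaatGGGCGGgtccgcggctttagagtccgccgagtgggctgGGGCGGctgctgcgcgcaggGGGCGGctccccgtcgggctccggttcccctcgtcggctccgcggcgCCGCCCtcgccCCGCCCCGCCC
Dio2: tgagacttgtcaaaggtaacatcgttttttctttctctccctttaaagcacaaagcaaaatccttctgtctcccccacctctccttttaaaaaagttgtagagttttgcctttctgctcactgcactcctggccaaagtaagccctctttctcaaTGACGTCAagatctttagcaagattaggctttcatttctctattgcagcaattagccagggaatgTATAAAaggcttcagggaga
The Dio2 sequence has TATAAA at position -30 and TGACGTCA at -95, with 2 CG dinucleotides in the 250 bases before the start. Among 32536 mouse promoters of this length, 12.3% hold TATAAA, 1.56% hold TGACGTCA and the median number of CG dinucleotides is 6. The Prkd1 sequence has 6 matches to GGGCGG, of which the last pair overlaps, and 30 CG dinucleotides, more than 94.0% of promoters have. Gm773 has 1 match to GGGCGG and 7 CG dinucleotides. GGGCGG occurs in 33.0% of promoters and CACGTG, which none of the 3 sequences holds, in 6.04%. Of the promoters not printed, Tmem121 had 2 matches to GGGCGG and 20 CG dinucleotides, and Wasf1 had 1 match and 15. A match describes these letters and is not a sign that a factor bound there.

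Library totals ran from 328740 to 566913 FPKM, with a median of 355875, and 11182 to 13769 genes reached 1 FPKM. Depth is unknown. Vector anti-PD-1 replicate 1 stood apart, with the highest total and a mean Spearman correlation of 0.873 with the other libraries, and mutant anti-PD-1 replicates 1 and 2 had 0.874 and 0.889, against 0.906 to 0.913 in the other 17. Main counts and values that rest on these 3 libraries are given with and without them. In the titles 11 animals carry an identifier of the letter M with a number and 9 a bare number, and what this style marks is not given. Pole, the gene of the design text, averaged 3.94 ± 1.69 FPKM in mutant anti-PD-1, 5.22 ± 0.872 in mutant PBS, 7.51 ± 2.28 in vector anti-PD-1 and 8.62 ± 1.64 in vector PBS tumours (SD, n = 5). Chek2, the gene of the title, averaged 5.03 ± 1.32, 6.44 ± 1.34, 5.01 ± 1.34 and 6.43 ± 1.23 FPKM in the same groups. The tissue is labelled as tumour of a carcinoma line, and the 4 epithelial markers Krt8, Krt18, Epcam and Cdh1 together came to between 1.75 and 25.3 FPKM in a tumour.

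Masp1 (ENSMUSG00000022887, mm10 chr16:23449417-23520815, minus strand), the complement protease gene, was low in every mutant tumour. In mutant tumours it measured 0.460, 0.540, 0.831, 0.684 and 0.816 FPKM under anti-PD-1 (replicates 1 to 5) and 0.421, 0.552, 0.880, 0.449 and 0.599 FPKM under PBS. In vector tumours it measured 1.44, 4.62, 4.03, 4.51 and 3.98 FPKM under anti-PD-1 and 4.13, 3.24, 3.66, 4.46 and 4.44 FPKM under PBS. All 10 mutant tumours lay below all 10 vector tumours, and the nearest vector tumour was anti-PD-1 replicate 1, far below the other vector tumours. The mean in mutant tumours was 5.58-fold lower under anti-PD-1 and 6.87-fold lower under PBS. On log2(FPKM + 1) the difference, mutant minus vector, was -1.48 ± 0.18 under anti-PD-1 and -1.66 ± 0.18 under PBS (SE). The annotation holds 4 transcripts of Masp1, a gene known to make several proteins by splicing, and the files give 1 value for all of them. Without the 3 libraries that stand apart the anti-PD-1 means were 0.777 ± 0.0807 FPKM in mutant tumours (SD, n = 3) and 4.29 ± 0.329 FPKM in vector tumours (n = 4), a 5.51-fold difference.

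Wasf1 (ENSMUSG00000019831, chr10:40883475-40938570, plus strand), the WAVE1 gene, was lower in mutant tumours at a low level throughout. Mutant tumours held 0.372, 0.387, 0.392, 0.573 and 0.581 FPKM under anti-PD-1 and 0.734, 0.485, 0.465, 0.701 and 0.720 FPKM under PBS. Vector tumours held 1.12, 1.10, 1.13, 1.69 and 1.35 FPKM under anti-PD-1 and 1.59, 1.24, 1.25, 1.33 and 1.41 FPKM under PBS. The 2 sets did not overlap, and here vector anti-PD-1 replicate 1 was among 3 neighbouring values rather than alone. The mean was 2.77-fold lower in mutant tumours under anti-PD-1 (2.56-fold without the 3 libraries) and 2.20-fold lower under PBS, and the separation was the narrowest among the 6 genes whose tumours did not overlap. The log2 difference, mutant minus vector, was -0.65 ± 0.10 under anti-PD-1 and -0.55 ± 0.10 under PBS (SE).

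Prkd1 (ENSMUSG00000002688, chr12:50341231-50649098, minus strand), the protein kinase D1 gene, ran the other way from the other 7. Mutant tumours had 1.57, 1.43, 1.60, 1.51 and 1.99 FPKM under anti-PD-1 and 1.29, 1.30, 1.65, 1.25 and 1.40 FPKM under PBS. Vector tumours had 0.0386, 0.689, 0.724, 0.686 and 0.699 FPKM under anti-PD-1 and 0.121, 0.395, 0.643, 0.791 and 0.735 FPKM under PBS. All mutant tumours lay above all vector tumours, and replicate 1 of each vector group was the lowest of its group. The mean was 2.86-fold higher in mutant tumours under anti-PD-1 (2.43-fold without the 3 libraries) and 2.57-fold higher under PBS. As a log2 difference this was 0.73 ± 0.14 under anti-PD-1 and 0.65 ± 0.14 under PBS (SE). Mutant tumours varied little around their mean, with a coefficient of variation of 14.8% over the 10, against 49.1% over the 10 vector tumours.

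Oplah (ENSMUSG00000022562, chr15:76296601-76328015, minus strand), the 5-oxoprolinase gene, varied more among vector tumours than the other 7 genes, with a coefficient of variation of 73.7%. In mutant tumours it measured 2.07, 1.27, 0.520, 0.608 and 0.327 FPKM under anti-PD-1 and 0.204, 0.442, 0.638, 0.365 and 0.290 FPKM under PBS. In vector tumours it measured 1.07, 6.93, 12.3, 15.8 and 17.2 FPKM under anti-PD-1 and 3.48, 3.90, 3.98, 14.6 and 24.5 FPKM under PBS. The PBS groups did not overlap, while under anti-PD-1 vector replicate 1 lay below mutant replicates 1 and 2, so the overlap is made by the 3 libraries that stand apart. The mean was 11.1-fold lower in mutant tumours under anti-PD-1 (26.9-fold without the 3 libraries) and 26.1-fold lower under PBS (16.8-fold without vector PBS replicate 5). The log2 differences were -2.43 ± 0.51 under anti-PD-1 and -2.62 ± 0.51 under PBS (SE). Vector tumours with a number alone as identifier had 12.3 to 24.5 FPKM and those with M and a number 1.07 to 15.8 FPKM, an overlap of a single M-style tumour above the lowest of the others, and the part of identifier style in these levels was not tested.

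Dio2 (ENSMUSG00000007682, chr12:90724552-90738438, minus strand), the deiodinase gene, was spread widely within both tumour types. Mutant tumours had 0.326, 0.200, 2.54, 1.31 and 1.88 FPKM under anti-PD-1 and 0.192, 1.22, 1.83, 0.226 and 0.219 FPKM under PBS. Vector tumours had 2.07, 5.06, 5.63, 6.80 and 11.2 FPKM under anti-PD-1 and 11.4, 7.67, 10.4, 5.53 and 4.19 FPKM under PBS. The PBS groups did not overlap, and under anti-PD-1 the only overlap was mutant replicate 3 above vector replicate 1. The mean was 4.92-fold lower in mutant tumours under anti-PD-1 (3.75-fold without the 3 libraries) and 10.6-fold lower under PBS (16.9-fold without mutant PBS replicate 3). On log2(FPKM + 1) the differences were -1.68 ± 0.39 under anti-PD-1 and -2.37 ± 0.38 under PBS (SE). Mutant tumours fell apart into 5 with at least 1 FPKM and 5 under 0.4 FPKM, and both treatments and both identifier styles occur in each set. Within anti-PD-1, however, replicates 3 to 5, with a number alone, were all higher. Replicates 1 and 2, with an M and among the libraries that stand apart, were lower. Within PBS, replicates 4 and 5, with a number alone, were lower, and those with an M occurred in both sets. The part of identifier style was not tested.

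Tmem121 (ENSMUSG00000049036, chr12:113185930-113189523, plus strand), the membrane protein gene, was lower in mutant tumours. They held 0.464, 0.329, 0.375, 0.732 and 0.301 FPKM under anti-PD-1 and 0.446, 0.285, 0.505, 0.634 and 0.611 FPKM under PBS. Vector tumours held 2.49, 1.74, 1.61, 3.05 and 1.47 FPKM under anti-PD-1 and 1.87, 1.82, 2.13, 1.30 and 1.38 FPKM under PBS. The 2 sets did not overlap, and vector anti-PD-1 replicate 1 was the second highest of all. The mean was 4.70-fold lower in mutant tumours under anti-PD-1 (4.18-fold without the 3 libraries) and 3.42-fold lower under PBS. On the log2 scale mutant minus vector came to -1.05 ± 0.14 under anti-PD-1 and -0.85 ± 0.14 under PBS (SE). Among vector tumours those with an M identifier, at 1.74 to 3.05 FPKM, lay above those with a number alone, at 1.30 to 1.61 FPKM, while for Prkd1 they lay below, at 0.0386 to 0.689 FPKM with an M and 0.699 to 0.791 FPKM without. The part of identifier style in either was not tested.

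C78283 (ENSMUSG00000106968, chr5:73946381-73948376, plus strand), the non-coding RNA, was high in vector tumours and close to 0 in mutant tumours. It was listed at 0 in 9 of 10 mutant tumours, and the other, anti-PD-1 replicate 5, had 0.0769 FPKM. Vector tumours had 0.959, 7.28, 4.93, 5.63 and 7.46 FPKM under anti-PD-1 and 8.21, 5.83, 7.08, 5.42 and 6.47 FPKM under PBS. The sets did not overlap, and vector anti-PD-1 replicate 1 was again far below the rest. The vector anti-PD-1 mean without the 3 libraries was 6.32 ± 1.24 FPKM (SD, n = 4). No fold is given against groups listed at 0.

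Gm773 (ENSMUSG00000073177, chrX:56189827-56212881, minus strand), the predicted gene, was listed at 0 in all 10 mutant tumours. Vector tumours had 2.92, 4.67, 3.97, 4.89 and 4.71 FPKM under anti-PD-1 and 7.71, 4.15, 4.63, 3.16 and 4.54 FPKM under PBS. Vector anti-PD-1 replicate 1 was the lowest of the 10 but within reach of the next, at 3.16 FPKM. Without read depth, a listed 0 cannot be turned into an upper limit.

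**Figure D1:**
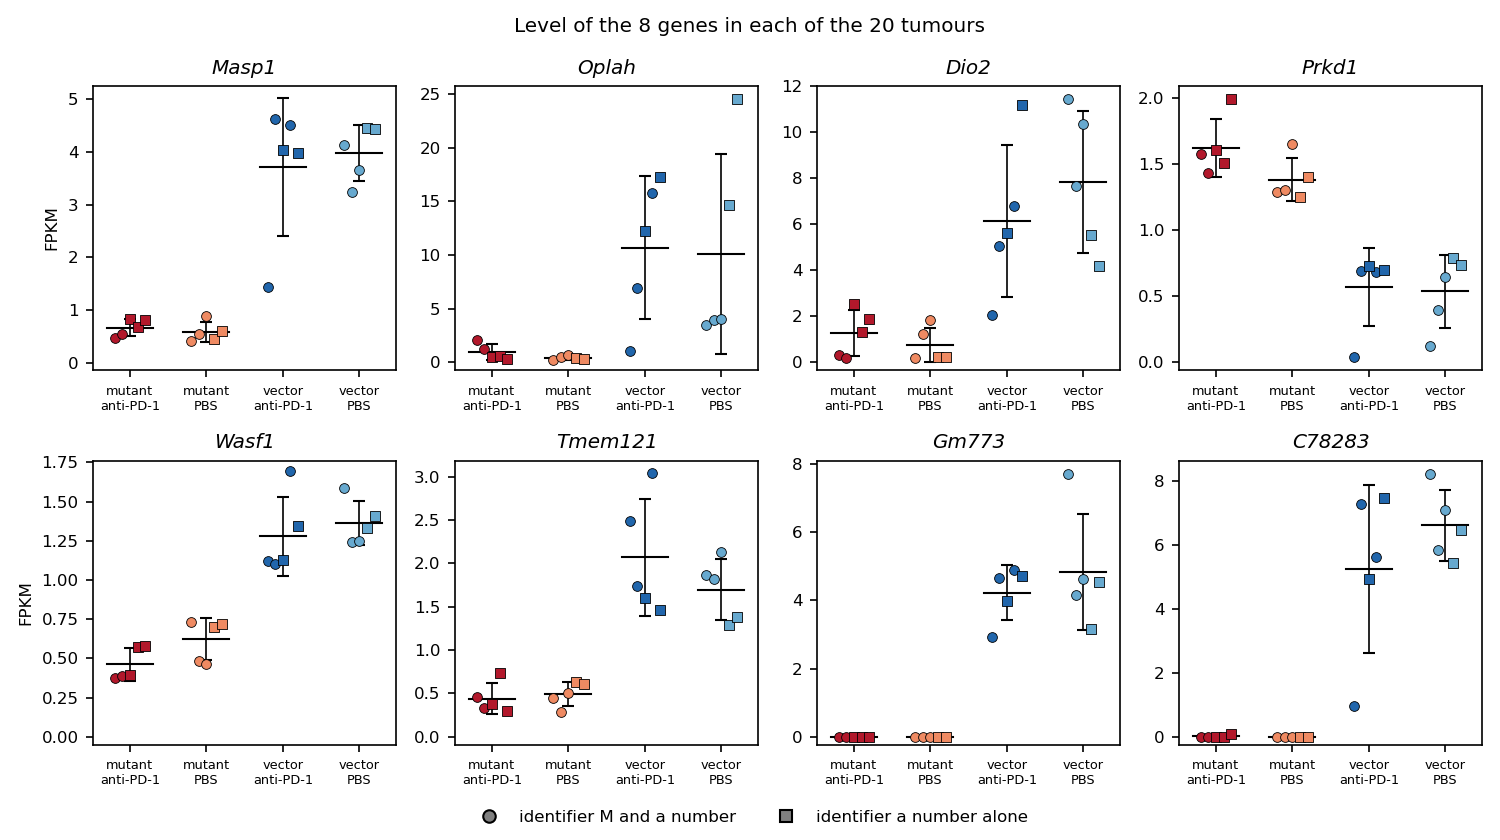
FPKM of each of the 8 genes in each of the 20 tumours, by group, on a linear axis per gene; the horizontal line is the mean and the bar the SD (n = 5, cut at 0), and the marker shape is the identifier style. Prkd1 was higher in mutant tumours and the other 7 genes were lower, with Gm773 listed at 0 in all 10 mutant tumours and vector anti-PD-1 replicate 1 low for Masp1, Oplah, Dio2, Prkd1 and C78283.

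Over all 20 tumours, 6 of the 8 genes had no overlap between mutant and vector tumours. By the same measure 130 of 13982 tested genes did not overlap, 97 of them lower and 33 higher in mutant tumours, which is a background of 0.93%. Under PBS alone all 8 genes had no overlap, where 9.05% of tested genes had none, and under anti-PD-1 alone 6 had none, where 19.9% had none. As the genes were chosen on this contrast, the counts are a description and nothing is read from them. Oplah and Dio2 were the exceptions, and vector anti-PD-1 replicate 1 was the only vector tumour in both overlaps. Without it, or without the 3 libraries that stand apart, all 8 genes therefore had no overlap, which follows from what was left out. After scaling to the upper quartile, and without mutant anti-PD-1 replicate 3, the number was 7. The share of all tested genes without overlap is not given for these settings, so nothing is read from the changes in number.

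The gap between the 2 sets, taken on log2(FPKM + 1) from the highest tumour of the lower type to the lowest of the higher type, was 1.97 for Gm773, the widest of all tested genes. It was 0.86 for C78283, 0.41 for Tmem121, 0.37 for Masp1, 0.33 for Prkd1 and 0.28 for Wasf1, which are places 3, 14, 15, 19 and 22 among tested genes. Dio2 at -0.20 and Oplah at -0.57 overlapped. The choice was thus not the widest gaps in order, since 16 other genes had a wider gap than Wasf1. The 8 widest of these were Zfp988, Glod5, Gm32857, Hmgb1-ps8, Klhdc8a, Dusp9, Ccnb1ip1 and Casc4, all lower in mutant tumours, with gaps of 0.86 down to 0.47. Zfp988 averaged 0.249 FPKM over the 10 mutant tumours and 2.32 over the 10 vector tumours, and Glod5 averaged 1.34 FPKM over the mutant and 9.63 over the vector tumours. Zfp988 belongs to a family of similar zinc finger genes and Hmgb1-ps8 is a pseudogene of Hmgb1, so their values may include reads of near-identical copies.

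**Figure D2:**
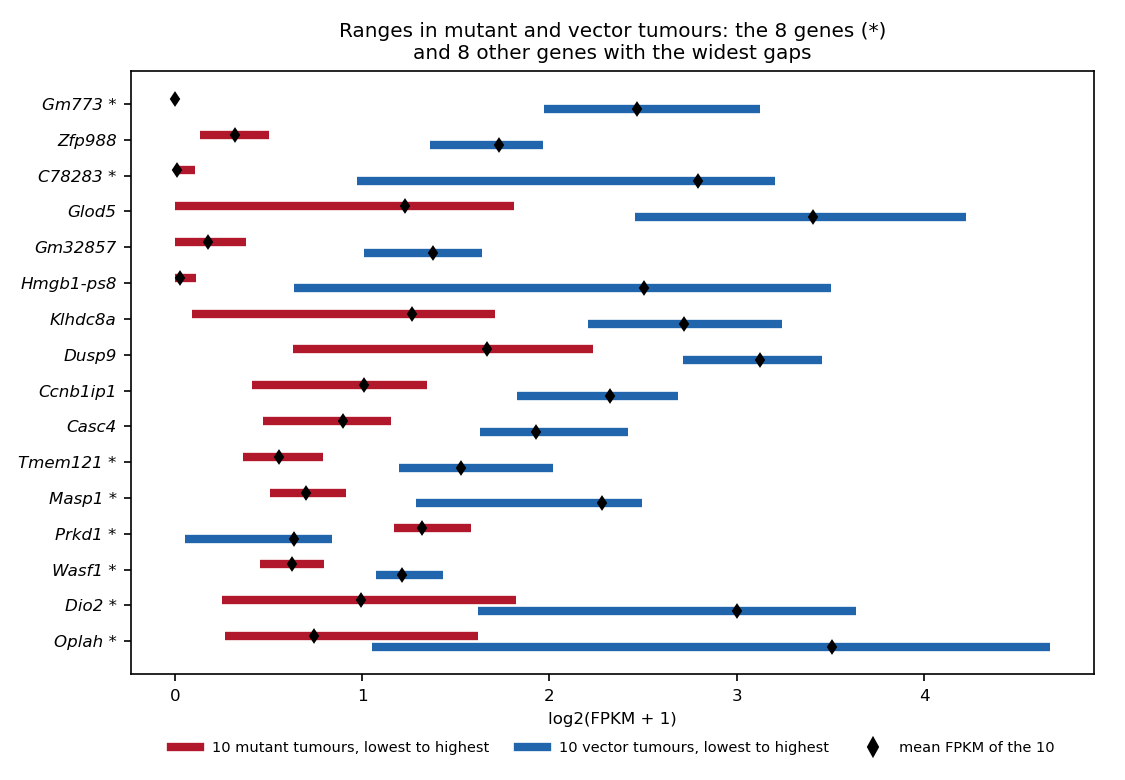
Lowest to highest log2(FPKM + 1) over the 10 mutant tumours (red, upper bar) and the 10 vector tumours (blue, lower bar) for the 8 genes, marked with a star, and for 8 other genes with the widest gaps; diamonds are means of the 10 FPKM values. Bars part for 6 of the 8 genes and overlap for Dio2 and Oplah, and the widest gap is that of Gm773, at 1.97.

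To be tested a gene had to reach 1 FPKM in 5 or more of the libraries, and all 8 did. For Masp1, Wasf1, Tmem121 and Gm773 only the 10 vector tumours reached 1 FPKM, for C78283 only 9 vector tumours did, and for Prkd1 only the 10 mutant tumours did. These 6 therefore passed only through the tumours where they were high, and the lower level in both types would not have passed. For this reason no count over the 8 is read as support. Oplah reached 1 FPKM in 2 mutant and 10 vector tumours, and Dio2 in 5 and 10.

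Likeness in level across the 20 tumours was ranked among tested genes other than the 8, so a closer match within the 8 is not shown. In this ranking the gene most like 4 of the 8 was the zinc finger gene Zfp988 on chromosome 4. Its Pearson r of log2(FPKM + 1) was 0.98 for Gm773, 0.97 for C78283, 0.96 for Masp1 and 0.94 for Wasf1. It came second for Tmem121 at 0.92, after Sdsl at 0.92. The collagen gene Col16a1 came second for C78283 at 0.95 and Masp1 at 0.96 and second for Dio2 at 0.91, after Iars2, a mitochondrial isoleucine tRNA synthetase gene, at 0.92. Prkd1 was most like the receptor gene Gpr141 at 0.95 and the adaptor subunit gene Ap2a2 at 0.93. Oplah was most like Gm28187 at 0.91 and the glutamate transporter gene Slc1a2 at 0.91, Gm773 had Gm32857 second at 0.96 and Wasf1 had Rnf113a2 at 0.92. All of these values carry the step between the 2 tumour types and the shared libraries, so they are given without a p.

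The antibody's effect was not what the genes were chosen on, but a choice on a difference held under both treatments favours genes that shift little between them. In mutant tumours 0 of the 8 passed the threshold for anti-PD-1 against PBS (limma adjusted p between 0.237 and 0.998), where 30.5% of all tested genes passed, and 0 of the 8 had an unadjusted p under 0.05. Masp1, Wasf1, Tmem121, C78283 and Gm773 reached 1 FPKM in 0 of the 10 mutant tumours, so nothing is read from this count against the background. Gm773 was listed at 0 on both sides and C78283 in all but 1 tumour, so for these there was no level to respond with. The other 6 moved by -0.16 (Wasf1) to 0.33 (Dio2) on log2(FPKM + 1) (95% interval -0.37 to 0.05 for Wasf1). Further 95% intervals were -0.33 to 0.42 for Masp1, -0.33 to 0.26 for Tmem121 and -0.19 to 0.40 for Prkd1. They were wider for Dio2, at -0.48 to 1.14, and for Oplah, at -0.76 to 1.39.

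Dio2 and Oplah in mutant tumours depended on which libraries were used. Dio2 rose by 1.08 without the 3 libraries that stand apart (adjusted p = 0.0340) and by 1.23 among libraries with a number alone (adjusted p = 0.0121), while among those with an M identifier the value was -0.63. The M-style mutant anti-PD-1 libraries are replicates 1 and 2, which are 2 of the 3 that stand apart, so these settings are not separate checks. Oplah passed only when the 2 mutant groups were fitted alone, at 0.53 (adjusted p = 0.0357), and was -0.39 without the 3 libraries (adjusted p = 0.561).

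In vector tumours 0 of the 8 genes passed (adjusted p between 0.724 and 0.955), where 0% of tested genes passed and 426 had an unadjusted p under 0.05, none of them among the 8. The values ran from -0.44 for C78283 (95% interval -1.01 to 0.14) to 0.17 for Tmem121 (-0.12 to 0.46), with a median of -0.09, against -0.08 over all tested genes. Without the 3 libraries C78283 was at -0.05, and of the 3 only vector anti-PD-1 replicate 1 is in this comparison. The difference of the responses, mutant minus vector, passed for 0 of the 8 (adjusted p between 0.444 and 0.901), where 9.35% of tested genes passed, and ran from -0.20 for Tmem121 to 0.69 for Dio2 (95% interval -0.45 to 1.83). The choice of genes bears on this contrast too. A p that misses the threshold leaves responses within these intervals possible.

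**Figure D3:**
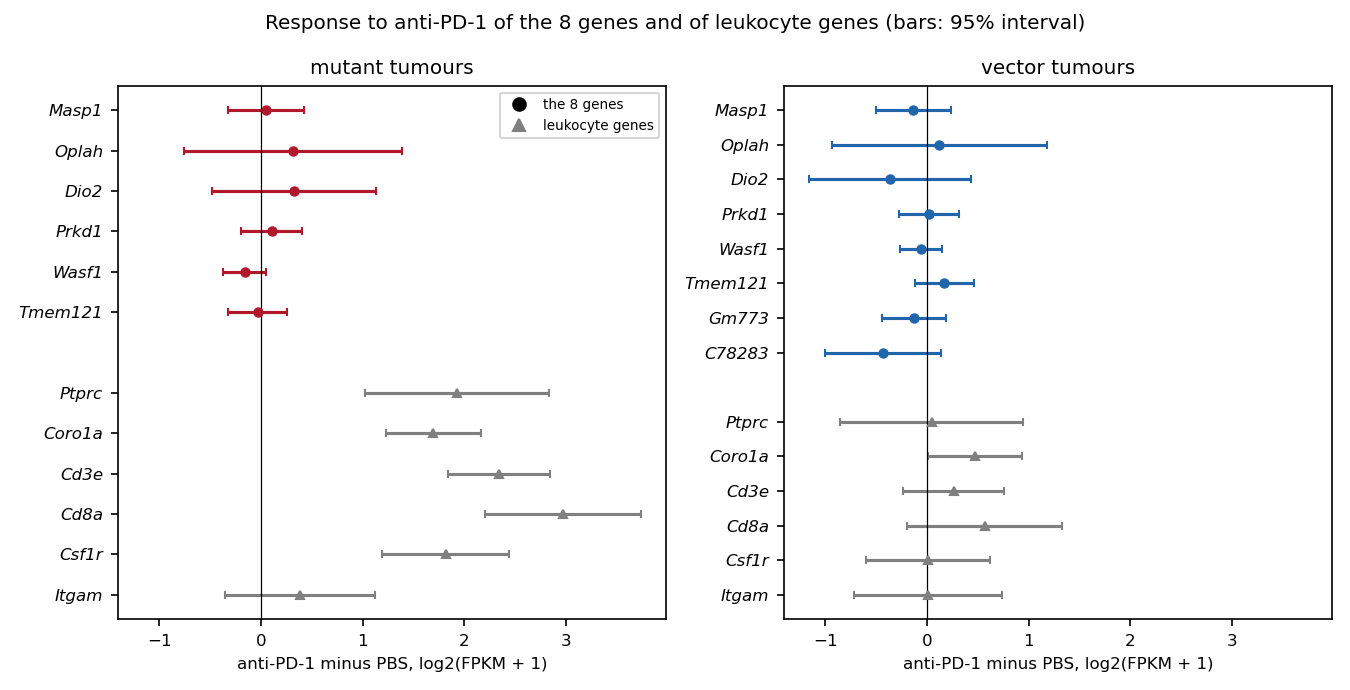
Anti-PD-1 minus PBS on log2(FPKM + 1) with its 95% interval, for the 8 genes (circles) and 6 leukocyte genes (triangles), in mutant tumours (left) and vector tumours (right); Gm773 and C78283 are left out on the left, since they were listed at 0 in nearly all mutant tumours. In mutant tumours the 6 genes shown lie between -0.16 and 0.33. Ptprc, Coro1a, Cd3e, Cd8a and Csf1r lie above 1.5, and Itgam, at 0.38, did not pass (limma adjusted p = 0.436). The 8 genes were chosen in a way that favours small shifts between treatments. Masp1, Wasf1 and Tmem121 lay under 1 FPKM in every mutant tumour, where this scale understates change. Nothing is therefore read from the 2 sets of genes side by side.

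Leukocyte markers rose with the antibody in mutant tumours. In mutant tumours anti-PD-1 raised 4 of 4 leukocyte, 6 of 6 T and NK cell, 5 of 7 myeloid, 5 of 5 fibroblast, 3 of 4 endothelial and 1 of 1 B cell markers, with the tested genes of each list as the base. Of the other lists 1 of 2 nerve and glia markers rose, 1 of 2 epithelial markers fell, and 0 of 2 adipocyte markers and 0 of 5 skeletal muscle markers passed. Without the 3 libraries that stand apart 4 of 4 leukocyte, 6 of 6 T and NK cell and 5 of 7 myeloid markers rose, but 0 of 5 fibroblast, 0 of 4 endothelial and 0 of 1 B cell markers passed. Ptprc, which encodes the pan-leukocyte CD45, averaged 19.1 FPKM in mutant anti-PD-1 and 4.74 in mutant PBS tumours (log2 difference 1.93 ± 0.43 SE, adjusted p = 0.00284), against 3.55 and 2.71 in vector anti-PD-1 and vector PBS tumours. The summed leukocyte markers spanned 174 to 476 FPKM in mutant anti-PD-1, 60.6 to 133 in mutant PBS, 63.4 to 118 in vector anti-PD-1 and 69.4 to 83.8 in vector PBS tumours. The range was 174 to 191 FPKM in mutant anti-PD-1 and 65.2 to 118 in vector anti-PD-1 tumours without the 3 libraries. Under PBS, mutant against vector, 0 marker genes of any list passed, where 1.45% of all tested genes did, and without the 3 libraries 1 T and NK cell and 1 myeloid marker were higher and 1 B cell and 1 fibroblast marker lower. Skeletal muscle markers summed to 71.7 to 1109 FPKM in mutant anti-PD-1, 0.519 to 748 in mutant PBS, 0.896 to 389 in vector anti-PD-1 and 1.39 to 6.11 in vector PBS tumours. In which cells the 8 genes were transcribed was not tested.

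Genes beside the 8 were compared between mutant and vector tumours, to see whether nearby genes differed too. Tested genes within 500 kb numbered 89. Under PBS 1 of the 89 passed, or 1.12%, where 1.45% of all tested genes did. The median log2 difference of the 89 was 0.07 under PBS and 0.01 under anti-PD-1. Without the 3 libraries that stand apart 8 of the 89 passed under PBS, where 11.8% of all tested genes did. The 1 gene that passed with all libraries was Grina, 46.7 kb from Oplah. Grina averaged 134 ± 29.7 FPKM in mutant anti-PD-1, 126 ± 30.7 in mutant PBS, 69.7 ± 14.9 in vector anti-PD-1 and 64.8 ± 11.2 in vector PBS tumours (SD, n = 5). It was higher in mutant tumours by 0.94 under PBS (adjusted p = 0.0238) and by 0.94 under anti-PD-1 (adjusted p = 0.00197), opposite to Oplah. The PBS call was lost on leaving out mutant PBS replicate 1, 2 or 4 or replicate 1 or 3 of vector PBS. It was also lost within either identifier style, and the limma adjusted p ran up to 0.294 over these settings. Without the 3 libraries that stand apart the limma adjusted p was 0.00338. Those 3 are anti-PD-1 tumours, so the PBS tumours and the difference of 0.94 stayed the same, and this is no check of the call.

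Apart from Grina, no nearest gene on either side passed under PBS. Cdc40, a splicing factor gene that starts 164 bases from Wasf1 on the other strand, averaged 6.78 ± 1.20 FPKM in mutant anti-PD-1, 7.20 ± 0.367 in mutant PBS, 5.89 ± 2.21 in vector anti-PD-1 and 7.33 ± 0.614 in vector PBS tumours, with a log2 difference under PBS of -0.02 (adjusted p = 0.990). On the other side of Wasf1, Fig4 was at -0.29 under PBS (adjusted p = 0.574). Gpaa1, 3.22 kb from Oplah, was at 0.30 (adjusted p = 0.317), and Exosc4 and Smpd5, which overlap Oplah, were at 0.31 and 0.05 (adjusted p = 0.631 and 0.968). Rtp4, which overlaps Masp1 and is known as an interferon-induced gene, was at 0.23 under PBS (adjusted p = 0.895) and at 1.44 under anti-PD-1 (adjusted p = 0.000946). Masp1 also overlaps Gm45338 and Gm49514, Dio2 overlaps Gm26512 and Gm773 overlaps Gm14627. Strandedness of the libraries is not given, so reads of overlapping genes cannot be told apart.

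Beside Tmem121, Tedc1 was at -0.11 under PBS (adjusted p = 0.945), and Igha, the IgA constant region gene, was at 0.49 (adjusted p = 0.673). Beside C78283, Usp46 was at -0.15 (adjusted p = 0.914) and Sgcb at -0.05 (adjusted p = 0.976). Beside Gm773, 3830403N18Rik was at -0.12 (adjusted p = 0.977) and Zfp449 at -0.27 (adjusted p = 0.498). Dio2 and Prkd1 each had 1 tested neighbour, Cep128 at -0.23 (adjusted p = 0.648) and Gm7172 at -0.11 (adjusted p = 0.954), and St6gal1 and Bcl6 flanked Masp1 at -0.28 and 0.23 (adjusted p = 0.845 and 0.820). Tmem121, Prkd1 and Dio2 lie on chromosome 12, and the other 5 genes on 5 other chromosomes.

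Under anti-PD-1, 26 of the 89 neighbours passed, or 29.2%, where 32.9% of all tested genes did, with 15 higher and 11 lower in mutant tumours. In the same comparison 4 of 4 leukocyte, 6 of 6 T and NK cell and 5 of 7 myeloid markers were higher in mutant tumours. So were 4 of 4 endothelial, 3 of 5 fibroblast, 1 of 2 adipocyte and 1 of 2 nerve and glia markers, and 1 of 2 epithelial markers was lower. The part of any of these cells in the calls was not tested. The higher ones near Tmem121 were Igha and Ighm, which are antibody constant region genes, and Pld4, Gpr132 and Pacs2, of which Ighm had the largest value at 2.80 (adjusted p = 0.000184), and Cep170b was lower there. Near Oplah, Gsdmd, the pyroptosis effector gene, at 1.64, Parp10, Grina and Smpd5 were higher, and Eef1d, Pycrl, Rps6-ps1, Hgh1, Bop1, Fbxl6 and Slc52a2 were lower. Near Masp1, Rtp4, Adipoq and Bcl6 were higher and Gm8130 and Rfc4 lower, near C78283 Sgcb and Dcun1d4 were higher, and near Gm773 Ints6l was higher and 3830403N18Rik lower at -1.51 (adjusted p = 0.0153). Without mutant anti-PD-1 replicate 1 the count was 16, where 23.8% of all tested genes passed. Without the 3 libraries that stand apart it was 15, where 23.2% of all tested genes passed. Of the 26, 13 passed there too, and Fam83h and Mmgt1 were added. The 13 calls lost were those of Eef1d, Pycrl, Hgh1, Bop1, Fbxl6 and Slc52a2 near Oplah, Adipoq, Bcl6, Gm8130 and Rfc4 near Masp1, Sgcb and Dcun1d4 near C78283, and Ints6l near Gm773, with adjusted p from 0.0797 to 0.837.

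**Figure D4:**
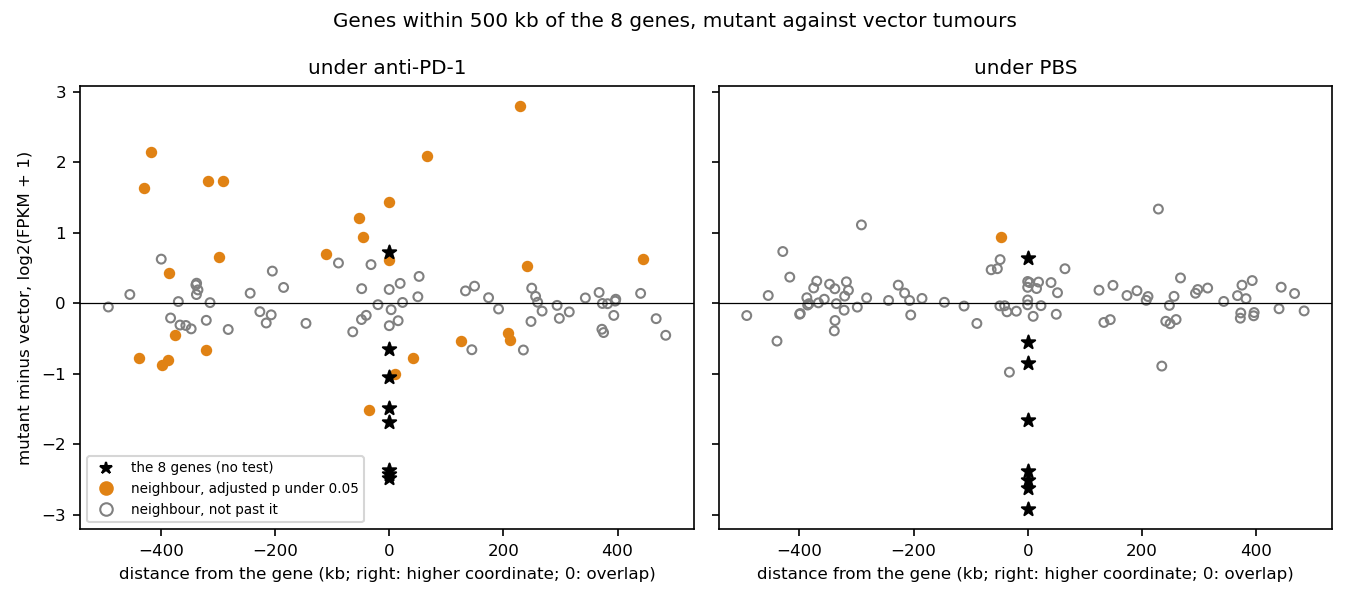
Log2 difference, mutant minus vector on log2(FPKM + 1), of 89 tested genes within 500 kb of the 8 genes, against distance in kb, under anti-PD-1 (left) and PBS (right); stars at 0 kb are the 8 genes, which carry no test, and filled circles are neighbours past an adjusted p of 0.05. Under PBS 1 neighbour, Grina, is filled, and under anti-PD-1 26 are.

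Other genes of the same pathways were taken from a list of 70, of which 51 were tested. Under PBS 1 of 51 passed, or 1.96%, where 1.45% of all tested genes did. Under anti-PD-1 24 of 51 passed, or 47.1%, with 19 higher and 5 lower in mutant tumours, where 32.9% of all tested genes did. The median log2 difference over the 51 was 0.05 under PBS and 0.36 under anti-PD-1, where it was 0.002 under each treatment over all tested genes. Without the 3 libraries the counts were 8 under PBS and 22 under anti-PD-1, where 11.8% and 23.2% of all tested genes passed. Under anti-PD-1 19 of the 24 passed there too, and the calls of Colec12, Abi2, Prkd2, Prkd3 and Ncoa1 were lost (adjusted p from 0.0920 to 0.421). In the anti-PD-1 comparison 4 of 4 leukocyte, 6 of 6 T and NK cell and 5 of 7 myeloid markers were also higher in mutant tumours. So were 4 of 4 endothelial, 3 of 5 fibroblast, 1 of 2 adipocyte and 1 of 2 nerve and glia markers, and 1 of 2 epithelial markers was lower. Without the 3 libraries 0 endothelial, 0 fibroblast and 0 adipocyte markers passed and the other counts were the same. The part of any of these cells in the pathway genes was not tested.

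Of the lectin complement genes beside Masp1, 6 of 13 were tested, with a median log2 difference of 0.48 under PBS and 2.79 under anti-PD-1. Serping1, which encodes the C1 inhibitor that binds and blocks MASP proteases, was the 1 gene past the threshold under PBS. It averaged 252 ± 80.0 FPKM in mutant anti-PD-1, 65.1 ± 58.5 in mutant PBS, 14.3 ± 6.23 in vector anti-PD-1 and 14.0 ± 5.02 in vector PBS tumours (SD, n = 5), higher in mutant tumours by 1.82 ± 0.42 under PBS (SE, adjusted p = 0.0346) and by 4.13 ± 0.42 under anti-PD-1 (adjusted p = 4.40e-06). The PBS call was lost on leaving out mutant PBS replicate 2, 3 or 4 or replicate 1, 2, 3 or 4 of vector PBS. It was also lost within either identifier style, without the filter and with skeletal muscle as a covariate. The limma adjusted p ran up to 0.243 over these settings. Without the 3 libraries that stand apart the limma adjusted p was 0.0146. Those 3 are anti-PD-1 tumours, so the PBS tumours and the difference of 1.82 stayed the same, and this is no check of the call. Under anti-PD-1, C3 at 3.69, C4b at 3.16, C2 at 2.43 and Colec12, a scavenger receptor gene of the collectin family, at 1.55 were also higher, and Fcna, the ficolin A gene, was lower at -1.15 (adjusted p = 0.0240). Masp2 had at most 0.549 FPKM in a tumour, and Mbl1 and Mbl2 were listed at 0 in all 20.

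Of the WAVE and Arp2/3 genes, 17 of 18 were tested and 0 passed under PBS, with a median log2 difference of 0.03 under PBS and 0.19 under anti-PD-1. Under anti-PD-1 Cyfip2 at 2.06, Nckap1l at 1.72, Abi3 at 1.38 and Actr2 at 0.83 were higher in mutant tumours, and Abi2 was lower at -0.45 (adjusted p = 0.0240). Nckap1l encodes HEM1, the WAVE subunit of blood cells. The related Wasf2 averaged 24.5 ± 1.11 FPKM in mutant anti-PD-1, 19.9 ± 1.56 in mutant PBS, 19.2 ± 5.76 in vector anti-PD-1 and 20.8 ± 3.02 in vector PBS tumours, above Wasf1 on this per-length scale, and its difference under PBS was -0.05 (adjusted p = 0.976). The most abundant of the list, Arpc2 and Brk1, were at -0.29 and 0.03 under PBS (adjusted p = 0.337 and 0.985).

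Of the protein kinase D and C genes, 10 of 11 were tested and 0 passed under PBS, with a median log2 difference of 0.02 under PBS and 0.70 under anti-PD-1. Prkd2 was at 0.11 (adjusted p = 0.926) and Prkd3 at -0.16 (adjusted p = 0.899) there. Under anti-PD-1 6 were higher in mutant tumours, Prkch at 1.58, Prkcq at 1.38, Prkcb at 1.31, Prkcd at 1.21, Prkd3 at 0.88 and Prkd2 at 0.52, with adjusted p from 4.33e-06 to 0.0360. Prkcq encodes the protein kinase C of T cell receptor signalling. Prkcd and Prkci, the most abundant of the list, were at 0.27 and -0.17 under PBS (adjusted p = 0.841 and 0.894).

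Of the glutathione genes, 9 of 13 were tested, with a median log2 difference of 0.27 under PBS and 0.23 under anti-PD-1. Under PBS 0 passed, and the most abundant were the glutamine transporter gene Slc1a5 at 0.26 (adjusted p = 0.628) and the glutathione reductase gene Gsr at -0.06 (adjusted p = 0.927). Under anti-PD-1 the aminopeptidase gene Anpep was higher in mutant tumours at 2.10, and the glutathione degrading Chac1 at -1.31, Slc1a5 at -0.80 and the glutathione synthetase gene Gss at -0.61 were lower, with adjusted p from 0.000114 to 0.00157. Of the thyroid hormone genes, 9 of 14 were tested and 0 passed under PBS, with a median log2 difference of 0.05 under PBS and 0.44 under anti-PD-1. Under anti-PD-1 the hormone transporter gene Slc16a10 at 1.42, the inactivating deiodinase gene Dio3 at 1.42 and the coactivator gene Ncoa1 at 0.53 were higher, with adjusted p from 0.000155 to 0.0166. Dio1 was listed at 0 in all 20 tumours, and Klf9 and Rxrb, the most abundant of the list, were at 0.17 and 0.22 under PBS (adjusted p = 0.917 and 0.827). The relative Tmem121b reached at most 0.0517 FPKM and was not tested.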

How the data were processed

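RNA was sequenced from 20 CT26 tumours. Each deposited file gives a single number for every gene of its library. These were read as FPKM that the authors made with Cuffnorm, per the submitters' processing notes, which also name FastQC, STAR 2.5, DESeq and mm10 with no role or order. The file headers name no unit. The sources used here do not give the annotation, the strandedness or a scaling across libraries. Of 55335 identifiers, 55154 matched GENCODE vM21, and in 1 file 10 further columns were empty. For genes low but above 0 in both, each library was set against the first. After the best common scaling, the ratio lay within 5% of a simple ratio of small whole numbers for 20.5% to 26.6% of these genes. No reads were recovered on this ground, and depth is unknown. No libraries were identical, and the highest Spearman correlation was 0.929.

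Values were tested as log2(FPKM + 1), so differences of low genes are understated, in genes that reached 1 FPKM in 5 libraries or more. A limma fit (version 3.58.1, R 4.3.3, with trend) over the 20 libraries had a mean for each of the 4 groups and a term for identifier style, with Benjamini-Hochberg adjustment and a threshold of 0.05, and tested on simulated data. p-values measure the spread between these tumours. Groups came from the labels. Other steps used Python 3.11.15 with numpy 2.4.6 and pandas 2.3.3.

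The 8 genes and the pathway and marker lists were chosen with earlier results of these data known. Named genes are the 8, the nearest tested gene on each side and every neighbour within 500 kb past the threshold, every pathway gene past it with up to 2 most abundant per list, the 8 others with the widest gaps, and, outside the 8, the 2 most alike per gene. Alternatives were another pseudocount, filters, upper quartile scaling, covariates, identifier styles, other distances and leaving libraries out.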

Additional observations from a re-analysis of the deposited data

Results flagged for a closer look

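In 29 groups of 5 tumours, 1 for each gene and group that was not listed at 0 in all 5, the extreme tumour was set against the group's range by Dixon's test at the 95% level (critical value 0.71), and 3 groups held a tumour past it. Chance alone gives about 1 in 20 groups. Masp1 was 1.438 FPKM in vector anti-PD-1 replicate 1, against 3.98 to 4.62 in the other 4 tumours of the group. Prkd1 was 0.0386 FPKM in the same tumour, against 0.686 to 0.724. C78283 was 0.0769 FPKM in mutant anti-PD-1 replicate 5 and listed at 0 in the other 4, where any single value above 0 passes whatever its size, so nothing is read from it. Vector anti-PD-1 replicate 1 is also the library with the highest total and the lowest correlation with the others, and the part of the library in these values was not tested.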

How the results depend on the processing

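Of 709 alternative values for the response of the 8 genes to anti-PD-1, 706 kept their side of the threshold, 3 passed it where the reported value did not (Dio2 in 2 settings and Oplah in 1, both in mutant tumours) and 0 passed it in the other direction, while 50 had the other sign and passed in neither. In mutant tumours 1 gene passed among libraries with a number alone, without the 3 libraries that stand apart, and with only the groups compared fitted. Of all tested genes 30.9%, 22.1% and 44.2% passed in these settings. Neighbours past the threshold under PBS, reported as 1, numbered 2 with no filter, 0 in either identifier style, 8 without the 3 libraries and 3 with only the groups compared. Pathway genes under PBS, also 1, numbered 0 with no filter, in either style and with skeletal muscle as a covariate, 8 without the 3 libraries and 2 with only the groups compared. All tested genes also gave more calls there, 1643 or 11.8% without the 3 libraries and 924 or 6.61% with only the groups compared. Neighbours under anti-PD-1, reported as 26, numbered 13 among libraries with a number alone, 15 without the 3 libraries and 9 with only the groups compared. The shares of all tested genes were 22.9%, 23.2% and 16.8% there, against 32.9% in the main fit. Other distances gave 14 of 44 within 250 kb and 41 of 135 within 1 Mb. Leaving out 1 library at a time gave 0 to 2 neighbours and 0 to 2 pathway genes under PBS, where 0.594% to 5.38% of all tested genes passed. Under anti-PD-1 it gave 16 to 32 neighbours and 21 to 28 pathway genes, where 23.5% to 43.2% of all tested genes passed. For each response contrast 0 of the 8 genes passed. The shares of all tested genes were 19.7% to 48.5% in mutant tumours, 0% in vector tumours and 4.92% to 16.1% for the difference. The number of genes without overlap was 6 to 8, with no share of all tested genes beside it. That number, and the folds and marker calls given without some libraries, were chosen after seeing the data. The 3 libraries that stand apart are all anti-PD-1 tumours, so leaving them out kept the same PBS tumours. Under PBS the differences stayed at 0.94 for Grina and 1.82 for Serping1, and the spread estimated over the whole fit changed. Where other counts moved, the cause was not tested. Upper quartile scaling moved the median of all genes by under 0.1 in each contrast. The difference of responses needs all 4 groups and was not run on the groups compared alone. Depth is unknown, so how far it limits the low genes cannot be given. No paired analysis was possible because replicate numbers only name tumours.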
